A study of Homo sapiens with 24 samples.

Results

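The 43 genes described here are the origin licensing, replication fork, nucleotide synthesis and cyclin E/E2F genes of a fixed list of names, and all 43 were measured, among 20046 named genes on the arrays. They were read by 64 probes: 26 genes had 1 probe and 17 had more. Where a gene had several, it was read from the most variable one. The genes fall into 7 roles, with 10 origin licensing factors, 8 factors of helicase activation and origin firing, 6 polymerase and primase subunits, 5 genes of the sliding clamp and its loader, 5 of single-strand binding and Okazaki fragment joining, 4 of nucleotide synthesis and 5 G1/S regulators.

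The study compared clones of human cell lines that were labelled wild type or knockout for Rap1, the telomere protein encoded by TERF2IP, and the knockouts had been made with TALENs, nucleases that cut a chosen sequence. In HCT116, a colorectal carcinoma line, the wild-type clones were 15, 20 and 23 and the knockout clones 10, 21 and 28; in HT1080, a fibrosarcoma line, they were 2 and 9 against 8 and 21. Each of these 10 clones had 2 Illumina arrays of total RNA, and each is a single clone, so a clone's own history goes with its genotype. The other 4 arrays of the series, of ARPE-19, enter no comparison here.

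An origin of replication is licensed in G1 when ORC, CDC6 and CDT1 load the MCM2-7 helicase. The kinases CDC7-DBF4 and cyclin E/CDK2, with MCM10, CDC45 and the GINS complex, then activate the helicase. Polymerase alpha-primase starts each strand, RFC loads the PCNA clamp, and polymerases delta and epsilon extend it. RPA covers single strands, and FEN1 and LIG1 process and join Okazaki fragments. Many of these genes are transcribed at the G1/S transition through E2F factors, so their RNA in a culture rises with the share of cells entering S phase. With RNA of whole cultures, fewer cells in S phase and less RNA per cell cannot be told apart.

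Promoters are shown for 4 genes of different roles that differed in both wild-type pairs described below, because genes that moved together can be set beside the sequence before their starts. They were taken from RefSeq (GRCh38.p14), from 250 bases before to 50 after the gene start, in the direction of the gene. Capitals mark the words TTTCCCGC, TTTGGCGC, TTTCGCGC and TTTGCCGC, which are forms of the E2F site, searched on both strands; a word on the other strand appears reversed and complemented.
MCM3, chr6:52284693-52284992, minus strand: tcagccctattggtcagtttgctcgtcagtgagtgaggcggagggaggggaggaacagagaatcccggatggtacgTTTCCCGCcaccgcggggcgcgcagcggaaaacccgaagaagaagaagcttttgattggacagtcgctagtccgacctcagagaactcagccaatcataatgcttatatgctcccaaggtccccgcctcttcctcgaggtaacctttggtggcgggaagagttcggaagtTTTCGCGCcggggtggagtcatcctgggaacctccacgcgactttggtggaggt
GINS2, chr16:85688905-85689204, minus strand: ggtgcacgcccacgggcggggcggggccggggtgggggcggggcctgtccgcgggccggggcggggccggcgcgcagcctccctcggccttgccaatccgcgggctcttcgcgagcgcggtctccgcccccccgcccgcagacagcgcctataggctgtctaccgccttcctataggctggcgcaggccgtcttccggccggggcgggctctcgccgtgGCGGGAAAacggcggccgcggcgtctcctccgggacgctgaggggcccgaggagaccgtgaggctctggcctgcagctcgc
POLE2, chr14:49688165-49688464, minus strand: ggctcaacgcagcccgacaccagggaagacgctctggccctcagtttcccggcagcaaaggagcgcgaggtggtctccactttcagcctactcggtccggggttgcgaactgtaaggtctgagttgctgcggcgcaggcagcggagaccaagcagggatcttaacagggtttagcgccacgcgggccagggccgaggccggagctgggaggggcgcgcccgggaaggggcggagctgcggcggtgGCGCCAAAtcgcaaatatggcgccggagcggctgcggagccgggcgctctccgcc
RFC3, chr13:33817899-33818198, plus strand: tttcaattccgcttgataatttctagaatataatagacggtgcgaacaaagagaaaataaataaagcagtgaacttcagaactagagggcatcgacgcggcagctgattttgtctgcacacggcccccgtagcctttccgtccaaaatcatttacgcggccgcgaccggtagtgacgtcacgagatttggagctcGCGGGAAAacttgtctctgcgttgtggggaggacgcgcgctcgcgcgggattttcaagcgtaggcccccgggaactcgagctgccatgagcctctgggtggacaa
The words began 174 and 4 bases before the start of MCM3, 31 before that of GINS2, 5 before that of POLE2 and 55 before that of RFC3. All the promoters shown hold an E2F word, but not every gene that differed in both pairs had one. None of the words searched was found for MCM10, CDC45, CDC7, PRIM1, RFC2 and RFC5. Other forms of the E2F site were not searched, so these genes cannot be said to lack one. A promoter was at hand for 37 of the 43 genes, and 19 of them (51.4%) held at least 1 such word, against 908 of all 27305 promoters (3.33%) and 4.44% of the protein-coding ones. In MCM6 the forward word TTTGGCGC overlapped the reverse form of TTTCGCGC at both of its places. CCAAT, a common promoter word searched on both strands, was in 20 of 37 (54.1%) against 35.7% of all promoters, and TTTGAA, a form of the CHR element of mitotic genes, was in 2 of 37 (5.41%) against 15.4%. The E2F words did not separate the genes by what they did: they were in 13 of the 25 with a promoter that differed in either wild-type pair described below and in 6 of the 12 that did not. A match of letters is a description and shows no binding.

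Values are log2 differences from the median of the probe over the arrays of its line, because the deposited table is centred in that way; it holds no levels, and no gene can be ranked above another. TERF2IP checks the labels. In HT1080 it stood at 1.25 and 1.14 in wild-type clone 2, 1.11 and 1.14 in clone 9, and the knockout clones 8 and 21 were at -1.68 and -1.79 and at -1.11 and -1.20. In HCT116 it stood at 0.12 and 0.069 in wild-type clone 15, -0.28 and -0.26 in clone 20 and 1.45 and 1.21 in clone 23, against -0.0070 and -0.44, -0.77 and -0.29, and 0.048 and 0.0070 in the clones labelled knockout 10, 21 and 28. The genotypes were apart in HT1080 and overlapped in HCT116, so a direction drawn from the HCT116 labels rests on clones that this transcript does not separate. Over all probes, the array medians lay between -0.0542 and 0.0684.

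Averaged over the 43 genes, the clones of a line differed from each other more than the genotypes did in HCT116, and in HT1080 1 wild-type clone stood apart. In HCT116 the mean over the genes was 0.16 and 0.19 on the arrays of wild-type clone 15, -0.23 and -0.090 in clone 20 and 0.11 and 0.036 in clone 23. It was -0.067 and -0.18 in knockout clone 10, 0.037 and -0.022 in clone 21 and -0.026 and 0.0096 in clone 28. Clone 15 was the highest and clones 20 and 10 were the lowest, with 40 of 43 genes above 0 in clone 15, 39 below 0 in clone 20 and 33 below 0 in clone 10. In HT1080 the mean was -0.30 and -0.34 in wild-type clone 2, -0.0011 and -0.0075 in clone 9, 0.075 and 0.0097 in the knockout clone 8 and 0.088 and 0.10 in clone 21. Clone 2 was the lowest of the 4 clones for 36 of the 43 genes, against 26.4% of all genes that were lowest there.

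**Figure D1:**
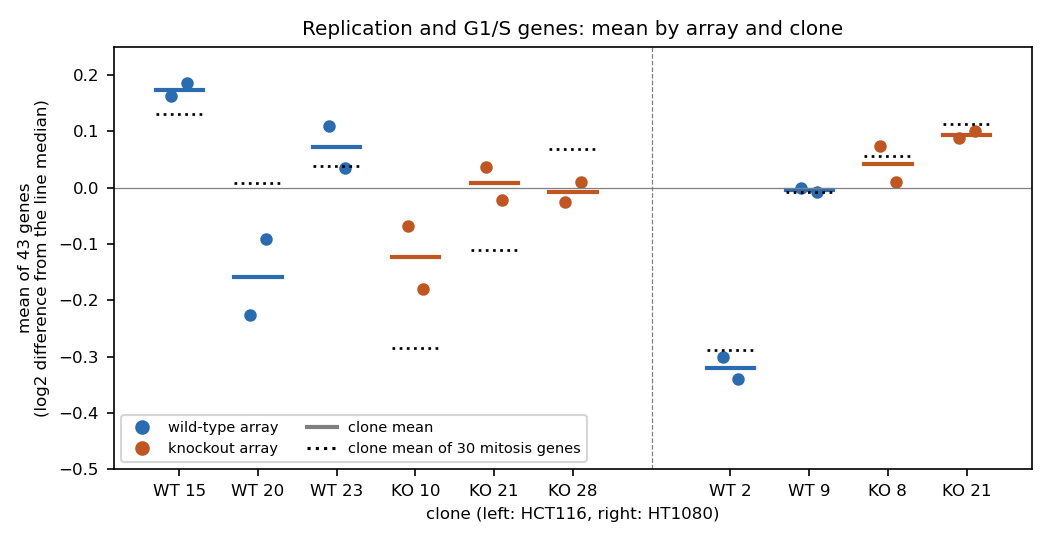
Mean of the 43 replication and G1/S genes on each array (points) and in each clone (bars), in log2 units relative to the median of the line, with the mean of 30 mitosis genes as a dotted line. Wild-type clone 15 lies at the top of HCT116 and clones 20 and 10 at the bottom, and wild-type clone 2 lies lowest in HT1080.

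Among all clones of a line, 26 of the 43 genes differed in HCT116 and 26 in HT1080 (60.5% in each, limma F test over arrays, Benjamini-Hochberg adjusted over all genes, threshold 0.05), against 25.8% and 21.2% of all genes. In both lines 19 of the 43 genes differed, against 2078 of all 20046 genes and 15 of 30 mitosis genes. The clamp and its loader had 5 of 5 genes in HCT116 and 4 of 5 in HT1080, and origin licensing had 7 and 6 of 10. These tests, and those between clones below, measure clones against the spread between the 2 arrays of a clone, which the labels do not call separate cultures and which may be technical. Leaving out 1 array in turn gave 16 to 26 genes in HCT116, with 16 without the first array of clone 20 or the second of clone 10, and 16 to 25 in HT1080, with 16 without the second array of clone 2. Shares of this size were not particular to the 43 genes. By the same F test, 60% and 73.3% of 30 mitosis genes differed in HCT116 and HT1080, and 50% and 52.6% of 38 other replication factors. The shares were 85.7% and 42.9% of 7 CDK inhibitors and 71.4% and 7.14% of 14 epithelial markers.

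**Figure D2:**
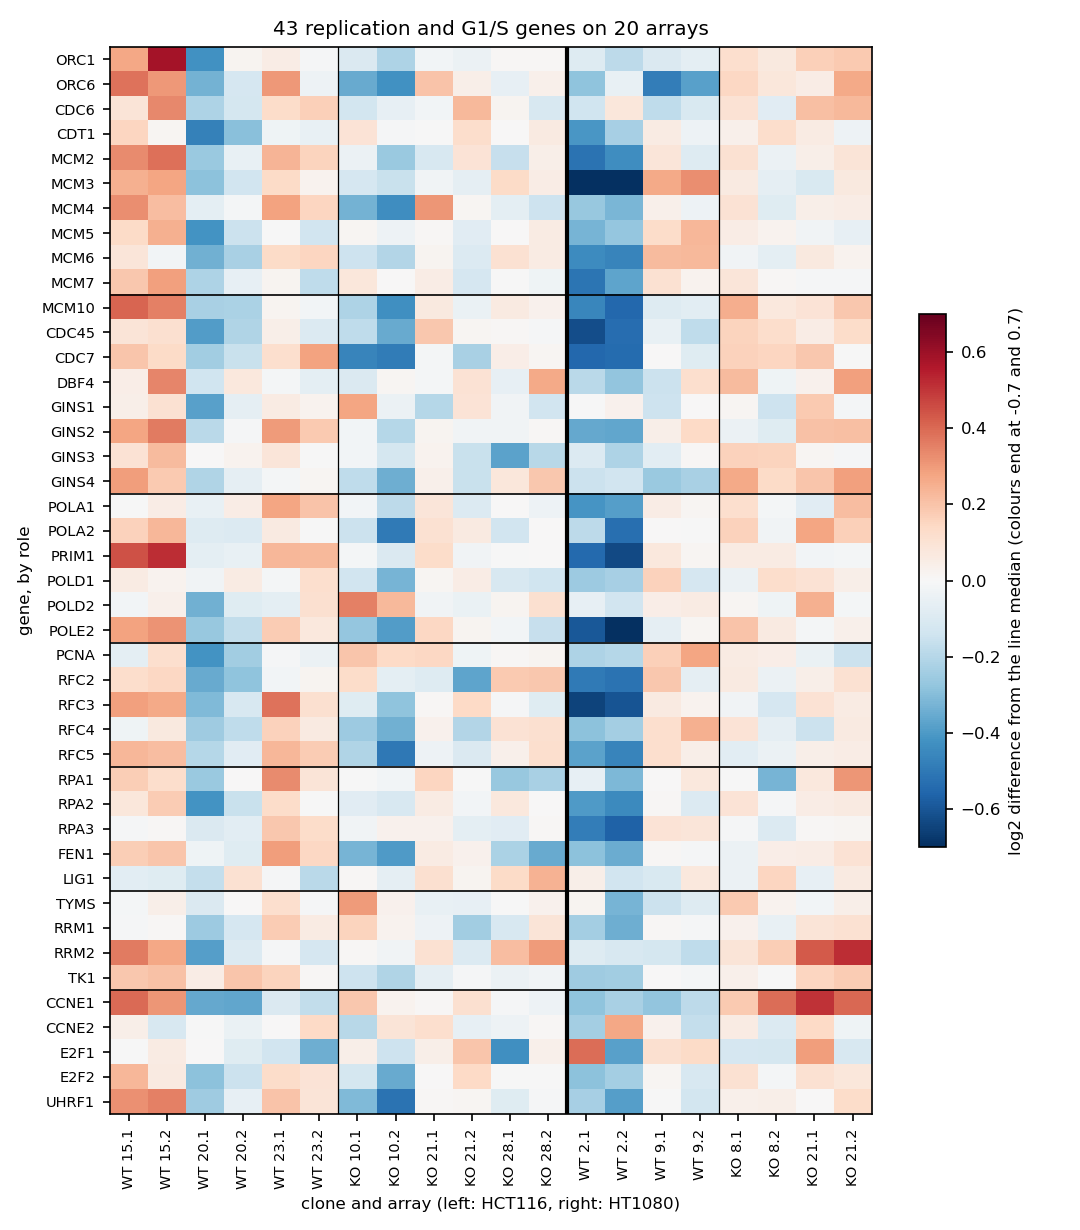
Every gene (rows, by role) on every array (columns, clone and array number), coloured by its log2 difference from the median of its line; colours end at -0.7 and 0.7, and the MCM3 values of wild-type clone 2, -1.10 and -1.36, lie beyond. Clone 15 is red for most genes, clone 20 blue, and clone 2 is blue except for few genes such as CCNE2 and E2F1, whose arrays disagree.

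Clones of 1 genotype were compared in every pair the design holds, 6 in HCT116 and 2 in HT1080. Between wild-type clones 15 and 20 of HCT116, 24 of the 43 genes were higher in clone 15 and 0 were lower (55.8%; of all genes 12.4% differed and 7.54% were higher), with a median difference of 0.37. Between wild-type clones 2 and 9 of HT1080, 20 genes were lower in clone 2 and 0 were higher (46.5%; of all genes 15.7% differed and 7.88% were lower), with a median of -0.32. The count of clones 15 and 20 rests on few arrays: it was 3 without the first array of clone 20, 7 without the second and 10 without the first array of clone 15, while all genes past the threshold fell from 2483 to 1008, 1148 and 1227. That of clones 2 and 9 was 14 to 20 without single arrays. Both lists share 15 genes, 62.5% of the 24 and 75% of the 20, against 29.2% and 23.0% for the lists of all genes: MCM2, MCM3, MCM5, MCM7, MCM10, CDC45, CDC7, GINS2, PRIM1, POLE2, PCNA, RFC2, RFC3, RFC5 and RPA2. These shares depend on how long the lists are. The list of clones 2 and 9 held 46.5% of the 43 genes and 15.7% of all genes. That of clones 15 and 20 held 55.8% and 12.4%. Whether the sharing exceeds what such lengths give was not tested.

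**Figure D3:**
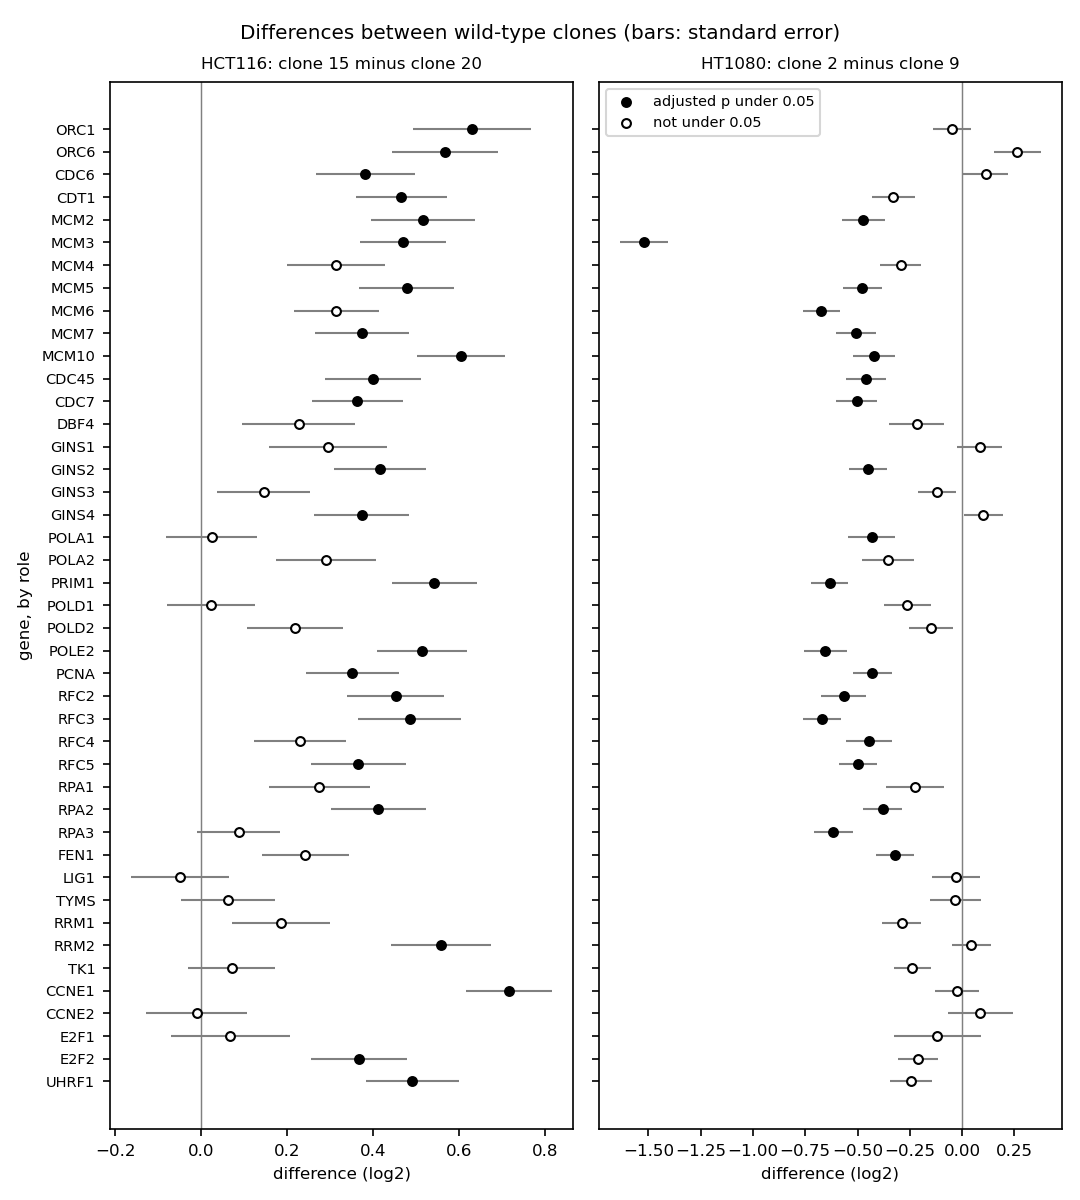
Difference of each gene between wild-type clones 15 and 20 of HCT116 (left) and 2 and 9 of HT1080 (right), in log2 units with standard errors; filled points passed the threshold. All 24 filled points on the left lie above 0 and all 20 on the right below 0, with MCM3 at -1.52.

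Of the origin licensing factors, 8 of 10 were higher in clone 15 and 5 of 10 lower in clone 2. MCM3, a subunit of the helicase ring, stood at -1.10 and -1.36 in clone 2 of HT1080, 0.27 and 0.32 in clone 9, 0.062 and -0.062 in the knockout clone 8 and -0.10 and 0.068 in clone 21. Clone 2 was far below the other 3 clones, and the difference to clone 9 was -1.52 ± 0.11 (SE; limma, adjusted p = 8.34e-06); a further probe gave -1.22. MCM6, of the same ring, stood at -0.44 and -0.46 in clone 2, 0.22 and 0.23 in clone 9, -0.022 and -0.067 in clone 8 and 0.071 and 0.022 in clone 21, so that clone 9 was the highest and clone 2 the lowest. Its difference was -0.67 ± 0.09 (adjusted p = 4.33e-04). The other helicase subunits MCM2, MCM5 and MCM7 differed by -0.47, -0.48 and -0.51, and MCM4 by -0.29 without passing. ORC1, the ATPase subunit of the origin recognition complex, stood at 0.27 and 0.58 in clone 15 of HCT116, -0.43 and 0.019 in clone 20, 0.053 and -0.0063 in clone 23, -0.10 and -0.22 in knockout clone 10, -0.017 and -0.039 in clone 21 and 0.0063 and 0.010 in clone 28. Clone 15 was highest, but the arrays of clone 20 disagreed; the difference of clones 15 and 20 was 0.63 ± 0.14 (adjusted p = 0.00714). ORC1 did not follow the helicase in HT1080, where clones 2 and 9 differed by -0.050 (adjusted p = 0.801).

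Of the factors that activate the helicase, 5 of 8 were higher in clone 15 and 4 of 8 lower in clone 2. MCM10, which acts at helicase activation, stood at 0.41 and 0.35 in clone 15, -0.22 and -0.22 in clone 20, 0.018 and -0.018 in clone 23, -0.21 and -0.43 in knockout clone 10, 0.068 and -0.049 in clone 21 and 0.062 and 0.031 in clone 28. Clone 15 lay above all others, by 0.60 ± 0.10 over clone 20 (limma, adjusted p = 0.00143) and by 0.38 over clone 23. CDC7, the kinase that phosphorylates the helicase, was 0.36 higher in clone 15 than in clone 20 and -0.50 in clone 2 relative to clone 9, while DBF4, its activating subunit, passed in neither pair (0.23 and -0.22). GINS2 differed by 0.42 and -0.45. GINS1 and GINS3, subunits of the same complex, passed in neither, and GINS4 passed in HCT116 (0.37) and not in HT1080 (0.10); the difference between the lines was not tested.

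Among polymerase and primase genes, PRIM1, the catalytic primase subunit, and POLE2, a subunit of polymerase epsilon, differed in both pairs. PRIM1 was 0.54 higher in clone 15 than in clone 20 and -0.63 in clone 2 relative to clone 9; POLE2 differed by 0.51 and -0.65. POLA1, the catalytic subunit of polymerase alpha, passed in HT1080 (-0.43) and stood at 0.025 in HCT116. Its further probe gave -0.068 in HT1080 and -0.25 in HCT116. POLD1 and POLD2 of polymerase delta passed in neither pair.

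All 5 clamp and loader genes were lower in clone 2 and 4 of 5 were higher in clone 15. RFC3, a loader subunit, stood at -0.65 and -0.60 in clone 2, 0.064 and 0.023 in clone 9, -0.023 and -0.12 in the knockout clone 8 and 0.10 and 0.055 in clone 21. Clone 2 was apart from all others, and the difference to clone 9 was -0.67 ± 0.09 (limma, adjusted p = 5.38e-04); of its 2 further probes, 1 gave -0.52 and 1 gave -0.043. PCNA, the clamp, differed by 0.35 in HCT116 and -0.43 in HT1080, where its further probes gave -0.14 and 0.012 and that of RFC2 gave -0.042. RFC2 and RFC5 differed by 0.45 and 0.37 in HCT116 and by -0.57 and -0.50 in HT1080, and RFC4 by -0.45 in HT1080, with 0.23 in HCT116, which did not pass. The further RFC5 probe went the other way in HCT116, at -0.27, and gave -0.23 in HT1080.

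Of the single-strand binding and joining genes, 1 of 5 was higher in clone 15 and 3 of 5 were lower in clone 2; of the nucleotide synthesis genes, 1 of 4 and 0 of 4. RPA2, the middle RPA subunit, differed in both pairs (0.41 and -0.38), and RPA3, the small subunit, and FEN1, the flap nuclease, in HT1080 (-0.62 and -0.32). RRM2, the small subunit of ribonucleotide reductase, was 0.56 higher in clone 15 than in clone 20 and was at 0.045 between clones 2 and 9. RRM1, its large subunit, and the nucleotide enzymes TYMS and TK1 passed in neither pair, and LIG1, the ligase, stood at -0.049 and -0.029.

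Among the G1/S regulators, 3 of 5 were higher in clone 15 and 0 of 5 differed between clones 2 and 9. CCNE1, cyclin E1, stood at 0.40 and 0.31 in clone 15, -0.36 and -0.36 in clone 20, -0.10 and -0.17 in clone 23, 0.19 and 0.027 in knockout clone 10, 0.0099 and 0.11 in clone 21 and -0.0099 and -0.034 in clone 28. Clone 15 lay above every other clone and clone 20 below, with a difference of 0.72 ± 0.10 (limma, adjusted p = 3.46e-04); the further CCNE1 probe gave 0.18. UHRF1, which brings maintenance methylation to replicated DNA, and E2F2 were 0.49 and 0.37 higher in clone 15 than in clone 20. E2F1 and CCNE2 passed in neither pair, and the arrays of clone 2 were far apart for E2F1, at 0.39 and -0.38.

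The probe that stands for a gene was chosen for its variance, which favours large differences between clones, so the other 21 probes were read too. Between clones 15 and 20, 18 of 21 had the same sign as the probe that stands for the gene and 12 reached at least 50% of its difference; between clones 2 and 9 these were 19 and 11. Over all 64 probes, 21 and 25 passed. With the mean of a gene's probes, 24 and 18 of the 43 genes passed. Shares of all probes and all genes under these choices are not given here, so the counts describe the 43 genes alone.

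The other pairs held fewer calls. In HCT116, knockout clone 10 was lower than knockout clone 21 in 8 genes (18.6%; of all genes 11.2% differed and 4.28% were lower), led by MCM4, ORC6 and UHRF1 at -0.55, -0.51 and -0.43. Relative to knockout clone 28 it was lower in CDC7, RFC5 and RFC4, at -0.51, -0.43 and -0.40 (5.08% of all genes differed and 2.26% were lower). The further RFC5 probe was not lower there, at 0.15 and 0.21 in clone 10 and 0.019 and -0.019 in clone 28. Between wild-type clones 15 and 23, MCM10 and CCNE1 differed, by 0.38 and 0.49 (4.87% of all genes differed, 2.38% higher). Between 20 and 23 it was MCM6, by -0.42 (2.57%, 1.3% lower), and between knockout clones 21 and 28 RFC2, by -0.41 (8.9%, 5.37% lower). The members' shares in the last 3 pairs were 4.65%, 2.33% and 2.33%, near or under those of all genes. In these 5 pairs, leaving out single arrays gave counts from 0 to 8, and 0 in each pair under at least 1 such choice. Between knockout clones 8 and 21 of HT1080, 0 of 43 genes passed (5.56% of all genes). In all 8 pairs together, 31 genes passed at least once. The share of all genes that did so is not given here, so this count does not set the 43 genes apart.

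**Figure D4:**
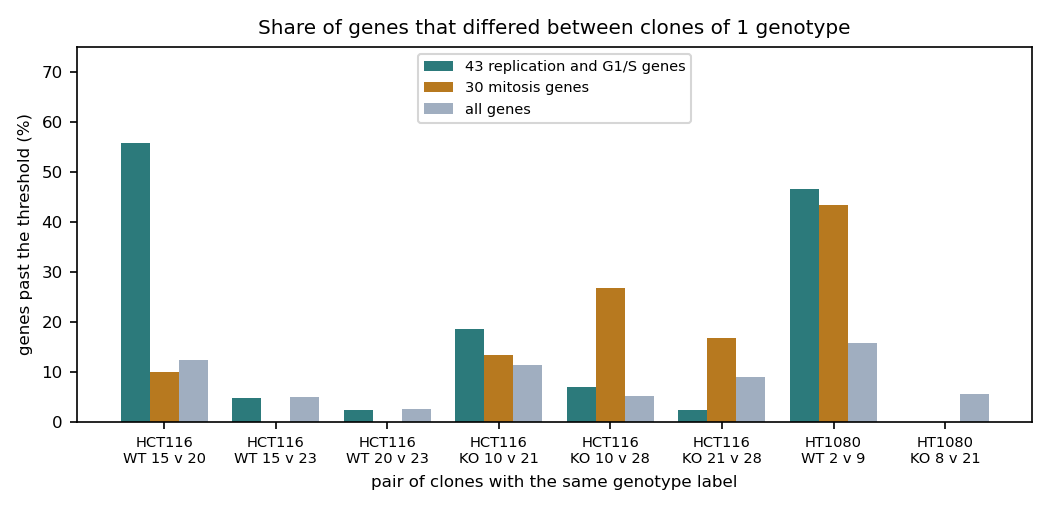
Share of genes past the threshold (percent) in each pair of clones with the same genotype label, for the 43 replication and G1/S genes, 30 mitosis genes and all 20046 genes. The replication genes stand highest between wild-type clones 15 and 20 (55.8%) and 2 and 9 (46.5%); the mitosis genes were at 10.0% and 43.3% there.

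Over the 6 HCT116 clones, a gene's correlation with the mean of the other 42 was positive for 39 of 43 genes, with a median r of 0.73, against a median of -0.12 and 42.3% positive over all genes. It was highest for RFC3 (r = 0.96) and MCM2 (0.95) and lowest for LIG1 (-0.22) and TYMS (-0.13). This is a description over 6 clones that share arrays and normalization. By role the median r was 0.86 for licensing, 0.82 for helicase activation and 0.41 for nucleotide synthesis.

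Knockout was then compared with wild type, with the 2 arrays of a clone averaged and the clone as the replicate. In neither line did any of the 43 genes pass. In HCT116 the lowest adjusted p was 0.605 (limma, n = 3 and 3 clones), FEN1 and TK1 had an unadjusted p under 0.05, both lower (2 genes; 2.99% of all genes), and 3 of all genes passed (0.015%). In HT1080 the lowest was 0.885 (n = 2 and 2 clones), 6 genes had an unadjusted p under 0.05, all higher (2.46% of all genes), and 2 of all genes passed (0.00998%). The mean over the 43 genes was 0.030 ± 0.17 (SD, n = 3) in wild-type and -0.041 ± 0.072 in knockout clones of HCT116, a difference of -0.071 that ran from -0.17 without clone 20 to 0.0013 without clone 15. In HT1080 it was -0.16 ± 0.22 (SD, n = 2) and 0.068 ± 0.037, a difference of 0.23 that was 0.072 without clone 2 and 0.39 without clone 9.

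**Figure D5:**
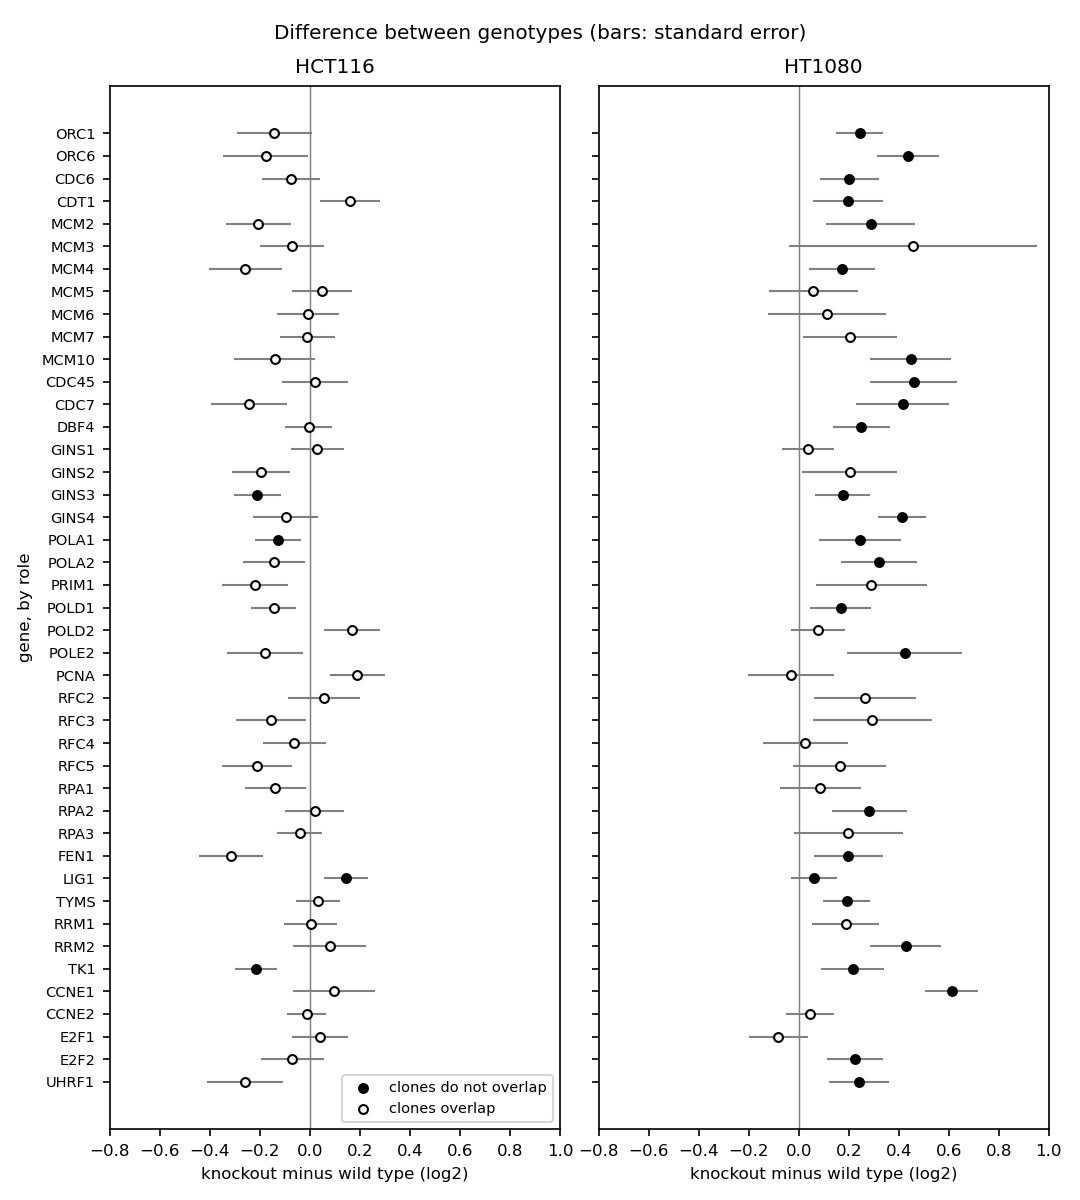
Difference of knockout minus wild-type clones for each gene, in log2 units with standard errors, in HCT116 (left, 3 against 3 clones) and HT1080 (right, 2 against 2); filled points are genes whose clones did not overlap between genotypes. In HT1080, 41 of 43 differences lie above 0 and 25 points are filled; in HCT116, 14 lie above 0 and 4 are filled.

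In HCT116, 29 of the 43 differences were below 0 (34.9% of all genes), with a median of -0.073 against 0.048 over all genes and a range from -0.32 to 0.19. All knockout clones were higher than all wild-type clones in 1 gene, LIG1 (11.8% of all genes; in 0 genes with each array centred on its median), and lower in 3, GINS3, POLA1 and TK1 (3.58% of all genes). Without wild-type clone 20 this count rose to 20 lower genes (8.39% of all genes), without knockout clone 21 to 6 (9.17%), and without wild-type clone 15 there were 7 higher genes (19.7% of all genes). The 7 higher genes were a smaller share of the 43 than the 19.7% of all genes, so that count is no result about these genes. The further POLA1 probe went the other way, at 0.11 against -0.13 for the probe that stands for the gene.

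By role, the genes with the largest statistic in HCT116 were MCM4, GINS3, PRIM1, PCNA, FEN1, TK1 and UHRF1. MCM4 stood at 0.33 and 0.21, -0.068 and -0.016, and 0.28 and 0.15 in wild-type clones 15, 20 and 23, and at -0.33 and -0.43, 0.31 and 0.016, and -0.071 and -0.14 in knockout clones 10, 21 and 28. The genotypes overlapped through clones 20 and 21, and the difference was -0.26 ± 0.15. GINS3 stood at 0.10 and 0.22, 0.0045 and 0.023, and 0.085 and -0.0045 against -0.019 and -0.12, 0.027 and -0.16, and -0.37 and -0.20, in the same order of clones. Its clone means did not overlap, though single arrays did, and the difference was -0.21 ± 0.09. PRIM1 stood at 0.45 and 0.52, -0.069 and -0.054, and 0.23 and 0.23 against -0.012 and -0.10, 0.13 and -0.026, and -0.0040 and 0.0040. Clone 20 lay level with knockout clone 10, and the difference was -0.22 ± 0.13. PCNA was the only one of these 7 with a difference above 0.
It stood at -0.070 and 0.12, -0.42 and -0.24, and -0.0061 and -0.042 against 0.20 and 0.14, 0.15 and -0.032, and 0.0061 and 0.022. Clone 20 was low and clone 15 lay between the knockout clones, for a difference of 0.19 ± 0.11; the further PCNA probes gave 0.092 and -0.017. FEN1 stood at 0.17 and 0.19, -0.029 and -0.087, and 0.29 and 0.14 against -0.32 and -0.40, 0.058 and 0.029, and -0.22 and -0.35. Knockout clone 21 lay above wild-type clone 20, and the difference was -0.32 ± 0.13. TK1, the salvage thymidine kinase, stood at 0.19 and 0.20, 0.052 and 0.20, and 0.15 and 0.0067 against -0.14 and -0.21, -0.061 and -0.0067, and -0.042 and -0.026. All 6 wild-type arrays lay above all 6 knockout arrays, with a difference of -0.22 ± 0.08 that did not pass over all genes (adjusted p = 0.605). UHRF1 stood at 0.32 and 0.35, -0.25 and -0.060, and 0.20 and 0.089 against -0.31 and -0.52, 0.0099 and 0.013, and -0.083 and -0.0099. The genotypes overlapped, and the difference was -0.26 ± 0.15.

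In HT1080, 41 of the 43 differences were above 0 (42.7% of all genes) and 2 below, PCNA at -0.031 and E2F1 at -0.081, with a median of 0.21 against -0.026 over all genes. Both knockout clones were higher than both wild-type clones in 25 genes (58.1%; 14.2% of all genes) and lower in 0 (22.5% of all genes). They were 6 of 10 licensing factors, 6 of 8 helicase activation factors, 4 of 6 polymerase and primase genes, 0 of 5 clamp and loader genes, 3 of 5 single-strand binding and joining genes, 3 of 4 nucleotide genes and 3 of 5 regulators. The low clone 2 carried most of the size: without it, the median was 0.048 against -0.035 over all genes, 29 of 43 differences were above 0, and 9 genes had both knockout clones below clone 9 (43% of all genes) while 27 had both above (62.8%; 29.2% of all genes). The shift was not particular to these 43 genes. With all HT1080 clones, all 30 mitosis genes had a difference above 0, and 19 had both knockout clones higher (63.3%). Of 38 other replication factors, 32 were above 0 and 20 had both knockout clones higher (52.6%).

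CCNE1 had the largest difference, and clone 2 did not set it. It stood at -0.28 and -0.22 in clone 2 and -0.28 and -0.18 in clone 9. Knockout clones 8 and 21 reached 0.18 and 0.39 and 0.51 and 0.40. Both genotypes were apart on every array, by 0.61 ± 0.10 (limma, adjusted p = 0.885, not past the threshold), but the further CCNE1 probe gave -0.10. RRM2 stood at -0.093 and -0.11, and -0.12 and -0.18, against 0.093 and 0.17, and 0.43 and 0.52. Its 4 knockout arrays lay above its 4 wild-type arrays, by 0.43 ± 0.14. ORC6, a subunit of the origin recognition complex, stood at -0.28 and -0.054, and -0.48 and -0.38, against 0.15 and 0.081, and 0.054 and 0.27. Here clone 9 was the lowest, and the difference was 0.44 ± 0.12, but the further ORC6 probe gave -0.041. GINS4, of the GINS complex, stood at -0.15 and -0.14, and -0.26 and -0.23, against 0.27 and 0.14, and 0.19 and 0.29. All knockout arrays lay above all wild-type arrays, by 0.41 ± 0.10.
POLA2, the B subunit of polymerase alpha, stood at -0.19 and -0.53 in clone 2 and 0.000013 and -0.000013 in clone 9, against 0.16 and -0.025, and 0.28 and 0.16. RPA2 stood at -0.40 and -0.45, and 0.0086 and -0.094, against 0.095 and -0.0086, and 0.051 and 0.065. In both, clone 2 was low and clone 9 close to the knockout clones; the differences were 0.32 ± 0.15 and 0.28 ± 0.15, and 0.14 and 0.093 without clone 2. RFC2 stood at -0.50 and -0.51, and 0.19 and -0.065, against 0.061 and -0.042, and 0.042 and 0.11. Its difference of 0.26 ± 0.20 turned to -0.019 without clone 2.

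The knockout effect was compared between lines by the interaction of genotype and line. It was higher in HT1080 for 39 of 43 genes (35.8% of all genes), with a median of 0.35 against -0.076, and 0 genes passed (limma, lowest adjusted p = 0.515; 10 of all genes, 0.0499%). By unadjusted p under 0.05 there were 6, all higher in HT1080 (2.9% of all genes). In 29 genes the difference was below 0 in HCT116 and above 0 in HT1080 (17.6% of all genes), and GINS3, POLA1 and TK1 were lower in HCT116 and higher in HT1080 without overlap (3 genes; 0.673% of all genes). The further POLA1 probe was above 0 in both lines, at 0.11 and 0.11. Mitosis genes showed the same contrast: 29 of 30 were higher in HT1080, with a median of 0.41, and 0 passed. Of these 30, 12 had an unadjusted p under 0.05 (limma), all higher in HT1080, and 25 were below 0 in HCT116 and above 0 in HT1080.

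Genes outside the set were read beside the 2 wild-type pairs from lists of related genes. Of all genes, 12.4% differed between clones 15 and 20, with 7.54% higher in clone 15. Between clones 2 and 9, 15.7% differed, with 7.88% lower in clone 2. Of 38 measured other replication factors, 14 were higher in clone 15 than in clone 20 and 0 lower (36.8%). In clone 2 relative to clone 9, 11 were lower and 1, ORC5, higher (31.6% in both directions). Of 30 genes of the G1/S control network, 7 were higher in clone 15 (23.3%), among them CDC25A, a phosphatase that activates CDK2, at 0.84, CCND1, cyclin D1, at 0.62 and MYC at 0.55. In clone 2, CCND1 and E2F7, a repressor of the E2F family, were 0.63 and 0.57 higher, and CDK2, CDK6, RBL2, SKP2 and CKS1B were lower, with SKP2, which targets p27 for destruction, at -1.16 and RBL2, a pocket protein, at -1.15. CCND1 was thus higher both in the clone where the replication genes were high and in the one where they were low.

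Of the 7 measured CDK inhibitors, CDKN1A, which encodes p21, was 0.90 higher in clone 2 than in clone 9 (limma, adjusted p = 1.11e-04), and CDKN1B and CDKN2D were lower, at -0.63 and -0.54. Its clone means in HT1080 were 0.64 and -0.26 in wild type and -0.037 and 0.058 in knockout, so clone 2 was the highest. In HCT116 they were -0.078, -0.14 and -1.07 in wild-type clones 15, 20 and 23 and 0.55, 0.47 and 0.13 in knockout clones 10, 21 and 28. Clones 15 and 20, at the ends of the replication genes, differed by 0.058 in CDKN1A, and by -0.89, -0.85 and -0.54 in CDKN1C, CDKN2B and CDKN2A, all lower in clone 15. The part of these genes in the result was not tested.

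Mitosis genes were read in the same pairs. Between clones 2 and 9, 13 of 30 were lower in clone 2 (43.3%, against 7.88% of all genes), PLK1 and TOP2A among them at -0.57 and -0.52. Between clones 15 and 20, 3 of 30 were higher in clone 15 and 0 lower (10.0%), near the share of all genes (12.4% differed and 7.54% were higher). They were CCNB1, PLK1 and MAD2L1, at 0.46, 0.48 and 0.78. In this pair, 24 of 30 differences were above 0, with a median of 0.13 against 0.0075 over all genes. Over clones, the mean of the mitosis genes was 0.13, 0.0083 and 0.039 in wild-type clones 15, 20 and 23 of HCT116, and -0.29, -0.11 and 0.069 in knockout clones 10, 21 and 28. Clone 20, low in replication genes, was near 0 in mitosis genes, and clone 10 was low in both; the difference between the lists was not tested.

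Markers of cell identity also differed between clones 15 and 20. Of 14 epithelial markers, 6 were higher in clone 15, EPCAM by 0.95 and CDH1 by 0.68, and 1, CLDN3, was lower. Of 14 mesenchymal markers, VIM, TWIST1 and SPARC were lower, by -2.33, -1.23 and -0.50. The shares that differed were 50% and 21.4%, against 12.4% of all genes. Clone means over the HCT116 clones ran from -0.27 in clone 20 to 0.29 in knockout clone 10 for the epithelial list and from -0.28 in knockout clone 28 to 0.25 in clone 20 for the mesenchymal list. Clones 20 and 10, both low in replication genes, thus stood at opposite ends of the epithelial list. Between clones 2 and 9 of HT1080, 0 of 14 epithelial markers differed (limma, the same test), and 3 mesenchymal markers did: PDGFRB and FN1 were lower in clone 2, by -0.93 and -0.45, and TWIST1 higher, by 0.43. Centred values hold no levels, so whether a line carries its markers, or which are near 0, could not be read, and their part in the result was not tested.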

How the data were processed

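Total RNA was extracted with RNeasy columns and labelled with biotin with a MessageAmp kit, per the labels' protocols. The deposited values are on a log scale, taken here as log2; the log base, background correction, normalization and software are not given in the sources used here. Within a line every probe had a median of 0 (largest remainder 5e-07), so the values hold differences and no levels, and the planned rule on dim probes does not apply. Of 47323 probes, 30113 had 1 gene symbol, 8 several and 17202 none; 30074 symbols were updated by Entrez identifier to the RefSeq table of GRCh38.p14.

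Computed here were limma 3.58.1 fits (lmFit, then eBayes; two-sided p adjusted by Benjamini-Hochberg over all 20046 genes, threshold 0.05, R 4.3.3). Arrays of a clone were averaged for genotypes and were the units for clones. The fits were tested on simulated data. Few clones and 2 arrays per clone limit the precision, and no signal over background is known. Genes named were, per role and line, the largest statistic; per pair, the 3 largest differences past the threshold, with other members by their difference alone; and genes of the related lists past the threshold. Members and lists were chosen with earlier results of these data known. Alternatives were other probes, array centring, a robust prior, single arrays, a replicate block, and clones or arrays left out.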

Additional observations from a re-analysis of the deposited data

How the results depend on the processing

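Members past the threshold for genotype or for the interaction stayed at 0 in every alternative run. That includes single arrays fitted with a replicate block (array number) and the clone as a random block: 0, 0 and 0 members (lowest adjusted p 0.275, 0.0771 and 0.217), with 120, 47 and 112 of all genes in HCT116, HT1080 and the interaction. In other alternatives, all genes past the threshold were 0 to 78, 0 to 21 and 8 to 71. The lowest adjusted p of a member came from the interaction without HT1080 wild-type clone 9, a fit that leaves clone 2 as the only wild-type clone of HT1080. Array numbers only name arrays of a clone and pair nothing across clones. RFC2 in HT1080 reversed to -0.019 without wild-type clone 2 and was 0.548 without clone 9.

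Counts of members between clones depended on probes, centring and arrays. For clones 15 and 23 they were 0 with the mean of probes, 1 with every probe and 1 with centred arrays; for 20 and 23, 2, 0 and 2. For 10 and 21 they were 5 with every probe, for 10 and 28, 1 with every probe and 6 with centred arrays, for 21 and 28, 0 with the mean of probes, and for 8 and 21, 1. Centred arrays left 0 members with all HCT116 knockout clones higher. Leaving out arrays gave 16 to 26 and 16 to 25 members among clones of HCT116 and HT1080, 3 to 25 for clones 15 and 20, 14 to 20 for 2 and 9, 0 to 2 for 15 and 23 and for 20 and 23, 0 to 8 for 10 and 21, 0 to 4 for 10 and 28 and 0 to 1 for 21 and 28. Leaving out clones, chosen like the array choices after seeing the data, gave 1 to 7 members higher and 3 to 20 lower without overlap in HCT116, and 26 to 40 and 0 to 9 in HT1080. Fewer clones make overlap rarer for every gene. In HT1080, 14.2% of all genes were higher and 22.5% lower with all clones, and 29.2% and 43% without clone 2. Shares of all genes without each other HT1080 clone are not given here. Fewer arrays or clones enter these fits; otherwise the cause was not tested. Of the other recomputed values, 203 of the main results and 167 of single genes kept their direction and side of the threshold or, for means, stayed within the spread of clones.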

Other observations

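In ARPE-19, a retinal pigment epithelium line with 1 array per clone, the mean of the 43 genes was 0.0035 in wild-type clone 23, -0.010 in the parental culture, -0.015 in knockout clone 25 and 0.024 in knockout clone 30.

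Other lists differed between clones of 1 genotype in HCT116 as well. Of the 14 epithelial markers, 8 were higher in knockout clone 10 than in knockout clone 21 (57.1%, against 6.97% of all genes). In clone 10 relative to clone 28, 4 were higher (28.6%, against 2.82% of all genes). Of the 30 mitosis genes, 8 were lower in knockout clone 10 than in clone 28 and 0 higher, while 3 of the 43 replication and G1/S genes were lower there (26.7% and 6.98%, against 2.26% of all genes).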
